A study of Mus musculus with 2 samples.

Results

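The 10 genes described here encode the enzymes, and 1 helper protein, that make prostanoids and leukotrienes from arachidonic acid: Pla2g4a, Ptgs1, Ptgs2, Hpgds, Tbxas1, Ptges, Alox5, Alox5ap, Lta4h and Ltc4s. They were chosen by gene symbol in the GENCODE M21 annotation, were matched by gene identifier to the gene tables and by transcript to both kinds of transcript tables, and make up 10 of 55536 annotated genes. All 10 genes and all 54 of their annotated transcripts were found. RNA was sequenced from primary macrophages grown from the bone marrow of C57BL/6J mice, with lipid A, the active moiety of endotoxin, at 100 ng/ml for 0 minutes. The RNA was that of the chromatin fraction, which is rich in transcripts still being made or spliced, and ribosomal RNA had been depleted. There were 2 libraries, replicates 1 and 2, made from 250 and 500 ng of RNA. Both belong to 1 group, so there was no treated group to compare, and no p-value is given. The labels number them as biological replicates under 1 donor entry and do not record age or sex, so separate animals are not established, and RNA input cannot be told apart from replicate number.

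Eicosanoids are short-lived lipid signals that act on the cell that makes them and on its neighbours. Cytosolic phospholipase A2 frees arachidonic acid from membranes. The cyclooxygenases turn it into the unstable prostaglandin H2, which terminal synthases convert to prostaglandin D2, prostaglandin E2 or thromboxane A2. In the other arm, 5-lipoxygenase, helped by its activating protein, makes leukotriene A4, which becomes leukotriene B4 or leukotriene C4. Macrophages are a well-known source of both kinds, and Ptgs2 and Ptges are classic genes induced by endotoxin.

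The gene tables held 10970767 and 14207280 expected counts in replicates 1 and 2. Levels are given in TPM, a transcript abundance that divides counts by transcript length so that genes can be compared. Where no read was counted, counting error alone still leaves room for 3 counts (0.274 and 0.212 RPM, reads scaled to the library total). Protein-coding genes held 26.3% and 24.6% of the TPM scale, and all other entries held the rest. All 8 macrophage markers examined were at 1 TPM or more in both libraries, with a summed level of 609 to 721 TPM. Of 8 mast cell and basophil markers, the cells best known for Hpgds and Ltc4s, 0 reached 1 TPM in the gene table, 5 had no count in either library, and their sum was 0.430 to 0.620 TPM. Of 6 platelet and megakaryocyte markers, the cells best known for Tbxas1 and Ptgs1, 3 reached 1 TPM, their sum was 17.55 TPM in replicate 1 and 6.87 TPM in replicate 2, and Gp1bb was at 0. The highest of them, Pf4, stood at 11.98 and 3.50 TPM. None of 7 neutrophil, 4 eosinophil, 4 T and B cell or 4 fibroblast markers reached 1 TPM in the gene table. In the second transcript table, described below, 4 markers of these other cells (platelets aside) passed 1 TPM in both libraries: Cpa3 of mast cells (1.24 and 1.29 TPM), Mpo of neutrophils (1.15 and 1.64), Cd3d of T cells (8.34 and 10.8) and Col1a1 of fibroblasts (1.02 and 1.74). How much RNA from other cells added to any gene below was not tested.

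Of the 10 genes, 8 reached 1 TPM in both libraries, which 46.7% of all 22028 protein-coding genes did. Those below it were Ptges and Ptgs2. The median level over the 10 genes was 5.88 ± 0.976 TPM (SD of the 2 libraries' medians), beside 0.720 TPM over all protein-coding genes and 11.07 TPM over those that reached 1 TPM in both. The spread within the pathway was wide: the mean of Hpgds was 2520-fold that of Ptgs2. From high to low the order in the gene table was Hpgds, Tbxas1, Lta4h, Ptgs1, Alox5ap, Pla2g4a, Alox5, Ltc4s, Ptges and Ptgs2. The values of the 2 libraries overlapped between Alox5ap and Pla2g4a and between Alox5 and Ltc4s, so those neighbours are not ordered by these data. No other pair of neighbours overlapped in that table. The order of the low genes differed in the second transcript table, described below. There Ptges (2.62 and 2.61 TPM) stood above Alox5 (0.896 and 2.36 TPM) in both libraries.

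**Figure D1:**
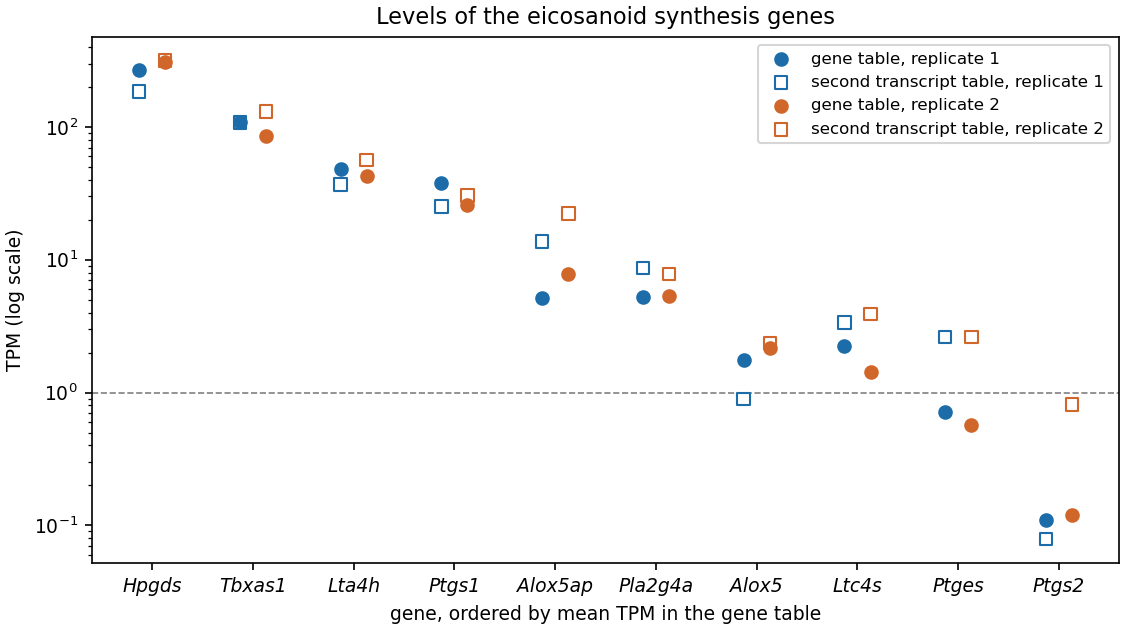
Level of each gene in each library, in TPM on a log scale. Filled circles are the gene table and open squares the second transcript table, with replicate 1 in blue and replicate 2 in orange, and the dashed line marks 1 TPM. Hpgds and Tbxas1 lie at the top and Ptgs2 at the bottom in both tables, while Alox5ap, Ptges and, in replicate 2, Ptgs2 lie well above their circles in the second table.

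Release of arachidonic acid begins with Pla2g4a (ENSMUSG00000056220.14, mm10 chr1:149829618-149961290, minus strand), the gene of cytosolic phospholipase A2 alpha. It held 108 counts in replicate 1 and 139 in replicate 2, or 5.22 and 5.34 TPM, a mean of 5.28 ± 0.0849 TPM (n = 2). The libraries were close to each other, and the gene ranked 7365 of 22028 protein-coding genes. It lies 138740 bases from Ptgs2, with 3 annotated genes between them, Gm19136, Gm44329 and Ptgs2os, all with 0 counts in both libraries.

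The cyclooxygenases stood far apart. Ptgs1 (ENSMUSG00000047250.13, mm10 chr2:36230426-36252272, plus strand), which encodes the constitutive form COX-1, held 457.79 and 418 counts, or 37.52 TPM in replicate 1 and 25.77 TPM in replicate 2, a mean of 31.65 ± 8.31 TPM. Ptgs2 (ENSMUSG00000032487.8, mm10 chr1:150100031-150108227, plus strand), which encodes the inducible form COX-2, held 5 and 8 counts, or 0.110 and 0.12 TPM, a mean of 0.115 ± 0.00707 TPM. So few counts do not show where on the gene the signal lies. Ptgs1 exceeded Ptgs2 by 341-fold in replicate 1 and by 215-fold in replicate 2. The same ratios were 320 and 37.6 by the second transcript table, since that table gave Ptgs2 0.0790 TPM in replicate 1 and 0.814 TPM in replicate 2. The opposite-strand neighbour Ptgs2os, 67 bases from Ptgs2, had 0 counts in both libraries.

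The sequences in front of the 2 genes are shown because they serve the same step and their levels stood so far apart. Each is the 250 bases upstream of the RefSeq start on GRCm38.p6 (the mm10 assembly), read 5′ to 3′ on the gene's strand, at chr2:36230176-36230425 for Ptgs1 and chr1:150099781-150100030 for Ptgs2. Capitals mark matches to 8 motifs searched on both strands.
Ptgs1: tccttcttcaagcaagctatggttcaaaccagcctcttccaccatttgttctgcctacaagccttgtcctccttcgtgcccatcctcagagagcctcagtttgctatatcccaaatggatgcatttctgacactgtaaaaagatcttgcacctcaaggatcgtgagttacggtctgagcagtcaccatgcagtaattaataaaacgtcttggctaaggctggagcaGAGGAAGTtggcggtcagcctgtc
Ptgs2: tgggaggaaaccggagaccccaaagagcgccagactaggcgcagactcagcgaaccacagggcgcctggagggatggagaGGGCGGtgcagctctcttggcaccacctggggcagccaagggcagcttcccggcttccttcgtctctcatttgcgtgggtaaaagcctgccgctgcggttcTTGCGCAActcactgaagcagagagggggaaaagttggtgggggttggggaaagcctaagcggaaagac
The Ptgs1 window held the PU.1 word GAGGAAGT, beginning at base -24 counted from the start, a word found in 2.44% of 32851 promoter windows of the same length. The Ptgs2 window held the Sp1 word GGGCGG at base -170, found in 32.7% of windows, and the C/EBP word TTGCGCAA at base -69, found in 0.164% of windows. Neither held the words for a TATA box (TATAAA, 12.4% of windows), a CCAAT box (CCAAT, 33.9%), a cyclic AMP response element (TGACGTCA, 1.55%) or AP-1 (TGANTCA, 6.75%), nor the NF-kB word used here (0.356%). These matches describe letters only. Only these exact words were searched and only upstream of the RefSeq start, so variants of them and sites past that start were not looked for.

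Among the terminal prostanoid synthases, those for prostaglandin D2 and thromboxane were high and the inducible prostaglandin E synthase was low. Hpgds (ENSMUSG00000029919.5, mm10 chr6:65117293-65144908, minus strand), hematopoietic prostaglandin D synthase, held 6636 and 11430 counts, or 268.96 TPM in replicate 1 and 310.62 TPM in replicate 2, a mean of 289.8 ± 29.5 TPM. It ranked 58 of 22028 protein-coding genes. Tbxas1 (ENSMUSG00000029925.13, mm10 chr6:38875404-39084585, plus strand), thromboxane A synthase, held 2676 and 3321 counts, or 109.36 TPM in replicate 1 and 85.37 TPM in replicate 2, a mean of 97.37 ± 17.0 TPM, and ranked 411. Ptges (ENSMUSG00000050737.13, mm10 chr2:30889471-30929863, minus strand), the inducible microsomal prostaglandin E synthase, held 25 and 23 counts, or 0.710 and 0.570 TPM, a mean of 0.640 ± 0.0990 TPM. Hpgds exceeded Tbxas1 by 2.46-fold in replicate 1 and by 3.64-fold in replicate 2, and by 1.71-fold and 2.40-fold in the second transcript table. It exceeded Ptges by 379-fold and 545-fold, and by 70.4-fold and 121-fold in that table.

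The letters in front of Tbxas1 and Hpgds, the pair with the highest levels, are shown for comparison with Ptgs1. For Tbxas1 they are the 250 bases at GRCm38.p6 chr6:38918736-38918985, plus strand, of which the last 6 lie in an annotated exon, since the GENCODE start precedes the RefSeq start by 6 bases. For Hpgds only the 30 bases around the match are given (chr6:65144761-65144790, minus strand), because the GENCODE first exon begins 178 bases upstream of the RefSeq start and covers them.
Tbxas1: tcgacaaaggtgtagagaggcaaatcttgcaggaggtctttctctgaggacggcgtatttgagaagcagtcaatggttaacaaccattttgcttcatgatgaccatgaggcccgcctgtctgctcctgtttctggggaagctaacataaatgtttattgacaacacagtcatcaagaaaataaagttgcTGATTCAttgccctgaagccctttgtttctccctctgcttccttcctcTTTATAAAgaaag
Hpgds: gcttttaggtgGAGGAAGTggcctctggct
Hpgds held the same PU.1 word as Ptgs1, at base -49. Tbxas1 held none, but held the AP-1 word at base -61 and the TATA word on both strands at bases -13 and -11, where the matches overlap. Of the other genes with a window, Ptges held the Sp1 word at bases -53 and -42 and Alox5 held it at base -35. Lta4h held CCAAT at bases -107 and -60, 1 of 2 Pla2g4a windows held a TATA word at base -200, and Ltc4s held no match. RefSeq windows were matched for 9 of the 10 genes.

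In the leukotriene arm the last enzyme of the B4 branch stood above the first enzyme. Alox5 (ENSMUSG00000025701.12, mm10 chr6:116410077-116461178, minus strand), the gene of 5-lipoxygenase, held 26 and 50 counts, or 1.76 and 2.17 TPM, a mean of 1.97 ± 0.290 TPM. Alox5ap (ENSMUSG00000060063.9, mm10 chr5:149264767-149288153, plus strand), which encodes the membrane protein FLAP that presents arachidonic acid to 5-lipoxygenase, held 54 and 105 counts, or 5.16 and 7.80 TPM, a mean of 6.48 ± 1.87 TPM. Alox5ap exceeded Alox5 by 2.93-fold and 3.59-fold in the 2 libraries, and by 15.4-fold and 9.42-fold in the second transcript table.

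Lta4h (ENSMUSG00000015889.8, mm10 chr10:93453411-93484875, plus strand), the hydrolase that makes leukotriene B4, held 482 and 650 counts, or 48.20 and 42.71 TPM, a mean of 45.45 ± 3.88 TPM. Ltc4s (ENSMUSG00000020377.15, mm10 chr11:50236461-50238616, minus strand), the synthase that conjugates glutathione to make leukotriene C4, held 10 and 8 counts, or 2.26 and 1.43 TPM, a mean of 1.85 ± 0.587 TPM. Lta4h exceeded Alox5 by 27.4-fold and 19.7-fold, and Ltc4s by 21.3-fold and 29.9-fold. The same 2 comparisons gave 41.1-fold and 23.9-fold, and 11.0-fold and 14.5-fold, in the second transcript table.

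Several of these genes share their place with other annotated genes. The labels do not say whether strand was kept, so reads of a gene and of an entry on the opposite strand cannot be told apart where their exons overlap. Alox5ap shares 189 exon bases with the antisense gene Gm19719, which held more counts than Alox5ap did, 223 and 312. Ltc4s shares 268 exon bases with the antisense gene Gm26542, which held 70 and 100 counts against 10 and 8 for Ltc4s. Ptgs1 shares 148 exon bases with the opposite-strand entry Gm43621 (34.21 and 58 counts). Tbxas1 shares 144 with Gm42962 (4 and 6 counts), overlaps the start of the opposite-strand kinase gene Hipk2 without shared exon bases, and holds the antisense gene 1700025N23Rik in its introns (17.02 and 8.46 TPM). An intron of Hpgds holds the opposite-strand processed pseudogene Gm17147 (mm10 chr6:65128571-65129002), which shares no exon base with Hpgds and was listed at 126.22 and 101.60 TPM, from 257 and 303 counts. Upstream of Ptgs1, 7491 bases away on the same strand, the long non-coding gene Gm13431 stood at 27.96 and 17.65 TPM.

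The transcript tables show which annotated forms the counts were assigned to. GENCODE gives some transcripts the class retained intron, meaning that they keep sequence that the coding transcript splices out. In chromatin RNA, reads of unspliced precursors can be assigned to such entries, and the tables do not separate them from a finished RNA. Over the 10 genes together, 64.5% of counts in replicate 1 and 66.0% in replicate 2 were on retained-intron transcripts, a mean of 65.3 ± 1.04%, beside 25.1 ± 0.104% over all protein-coding genes. Hpgds and Tbxas1 held 90.1 ± 1.75% of the 10 genes' counts, and without them the share was 33.8 ± 1.93%. Of 5 genes with such a transcript and at least 100 counts in each library, 2 (Tbxas1 and Hpgds) had 50% or more of their counts on it, which was true of 30.5% of 5042 protein-coding genes of that kind, whose median share was 31.2%. The picture depends on the unit. By TPM, which gives more weight to short entries, the shares were 72.5% for Hpgds, 69.7% for Lta4h, 69.2% for Tbxas1, 50.03% for Ptgs1 and 27.5% for Pla2g4a, so 4 of the 5 were at 50% or more, as were 48.1% of those 5042 genes.

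**Figure D2:**
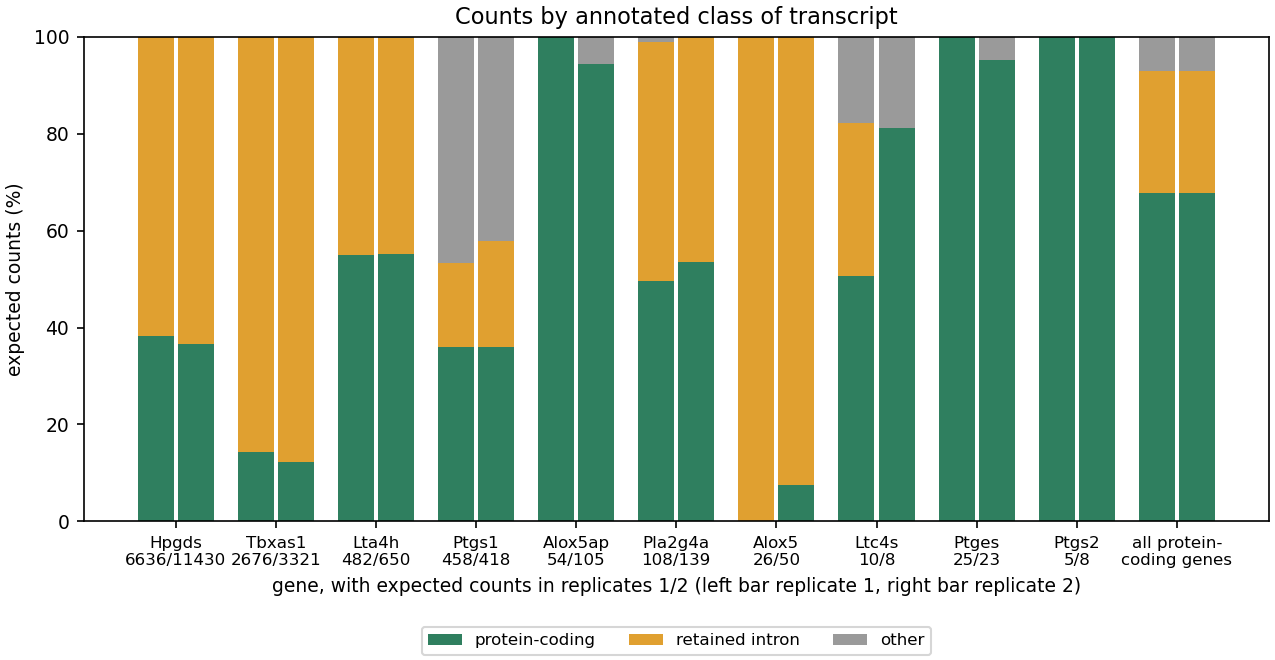
Percent of each gene's expected counts on protein-coding, retained-intron and other transcripts, with replicate 1 as the left bar and replicate 2 as the right bar, and the counts behind them under each name. The replicates are nearly alike for Hpgds, Tbxas1 and Lta4h, retained-intron transcripts hold 85.6% and 87.8% of Tbxas1 counts, and the bars for Alox5, Ltc4s, Ptges and Ptgs2 rest on 50 counts or fewer in each library.

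By counts, Tbxas1 had the highest share among the 5 genes, 85.6% in replicate 1 (95% Wilson interval 84.2 to 86.9) and 87.8% in replicate 2 (86.6 to 88.9). Its main entry was Tbxas1-205, with 1119.95 and 1516.86 counts, of whose bases 57.3% lie outside coding exons. Those 2616 bases are the whole of the 11th of 12 introns of the coding transcript Tbxas1-201. Tbxas1-202 followed with 827.53 and 979.89 counts, and Tbxas1-204 with 342.83 and 417.92. The full coding transcript Tbxas1-201 held 184.27 and 215.38 counts. About as many, 181.48 and 172.97, were on Tbxas1-206, a coding entry that begins 43.58 kb upstream of the start of Tbxas1-201. Its last exon, 76.65 to 77.57 kb from the first annotated base of the gene, lies inside an intron of Tbxas1-201 (76.53 to 106.72 kb). Reads of unspliced precursors there can be assigned to it too, so its counts do not show that the upstream start was used.

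Hpgds had 61.7% (60.5 to 62.8) and 63.4% (62.5 to 64.3) of its counts on retained-intron transcripts. Nearly all were on Hpgds-203, an entry of 1 exon and 3891 bases with 3919.48 and 6957.4 counts, against 2544.88 and 4179.63 on the coding Hpgds-201. Of its bases 73.0% lie in the 5th intron of Hpgds-201, and the rest run on into the last exon. On the coding transcripts alone, Hpgds stood at 75.92 and 83.35 TPM, and Tbxas1 at 35.69 and 23.56 TPM, so Hpgds was still the higher of the 2 in both libraries. Of that Tbxas1 level, 10.17 and 7.95 TPM were on the full coding Tbxas1-201 and the rest on shorter coding entries.

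By counts, Pla2g4a and Lta4h lay between these and the share over all protein-coding genes. Pla2g4a had 49.4% (39.8 to 58.4) and 46.5% (38.7 to 55.0), all on Pla2g4a-204 with 53.32 and 64.64 counts, of whose bases 92.0% lie outside coding exons. Lta4h had 45.1% (40.6 to 49.5) and 44.7% (40.8 to 48.5), spread over 5 retained-intron entries, of which Lta4h-205 was the largest with 86.71 and 122.59 counts. Ptgs1 had a lower share than Pla2g4a by counts, and a higher one by TPM. By counts, 17.3% (14.06 to 20.98) and 21.8% (18.08 to 25.97) of its counts were on retained-intron entries, while 44.5 ± 3.17% were on processed transcripts, mainly Ptgs1-204 with 191.11 and 154.38 counts against 164.79 and 150.26 on the coding Ptgs1-201.

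Alox5 had 100% (87.1 to 100) and 92.4% (81.2 to 96.9) of its counts on retained-intron entries, from 26 and 50 counts. Its coding transcripts were listed at 0 TPM in replicate 1 and 0.0900 TPM in replicate 2, so the level of Alox5 given above rests on entries that keep introns. The second transcript table put 76.5% of its counts on them. Ptgs2, Ptges and Alox5ap have no retained-intron transcript in the annotation, and their shares of 0% say nothing about unspliced RNA. Ltc4s had too few counts for a share to be read.

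The splice sites that the main retained-intron entries run through are shown because there these entries keep the intron joined to its exon. Each line gives 60 bases of the GENCODE M21 transcript on GRCm38, 5′ to 3′ on the gene's strand, with the 20 coding exon bases in capitals and 40 intron bases in lower case. The sites are at chr6:65120069-65120128 (minus strand) for Hpgds-203, chr6:39081057-39081116 and chr6:39083653-39083712 for both ends of the intron in Tbxas1-205, chr6:39027935-39027994 for Tbxas1-202, chr10:93461411-93461470 for Lta4h-205 and chr1:149922015-149922074 (minus strand) for Pla2g4a-204.
Hpgds-203 acceptor: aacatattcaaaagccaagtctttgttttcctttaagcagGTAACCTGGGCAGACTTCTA
Tbxas1-205 donor: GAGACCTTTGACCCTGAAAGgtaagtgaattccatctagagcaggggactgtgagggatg
Tbxas1-205 acceptor: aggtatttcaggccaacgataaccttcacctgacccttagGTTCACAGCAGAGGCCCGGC
Tbxas1-202 donor: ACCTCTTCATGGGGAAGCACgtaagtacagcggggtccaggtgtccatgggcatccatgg
Lta4h-205 donor: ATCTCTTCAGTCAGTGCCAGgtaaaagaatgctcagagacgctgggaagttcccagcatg
Pla2g4a-204 donor: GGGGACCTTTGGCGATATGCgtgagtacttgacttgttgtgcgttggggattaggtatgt
Each of the 6 sites has gt at the start of the intron or ag at its end, the usual ends of an intron. The introns concerned are 3469 bases long in Hpgds, 2616 and 43401 in Tbxas1, 3014 in Lta4h and 19612 in Pla2g4a, and Tbxas1-205 was the one of these entries that held an intron with both its ends.

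**Figure D3:**
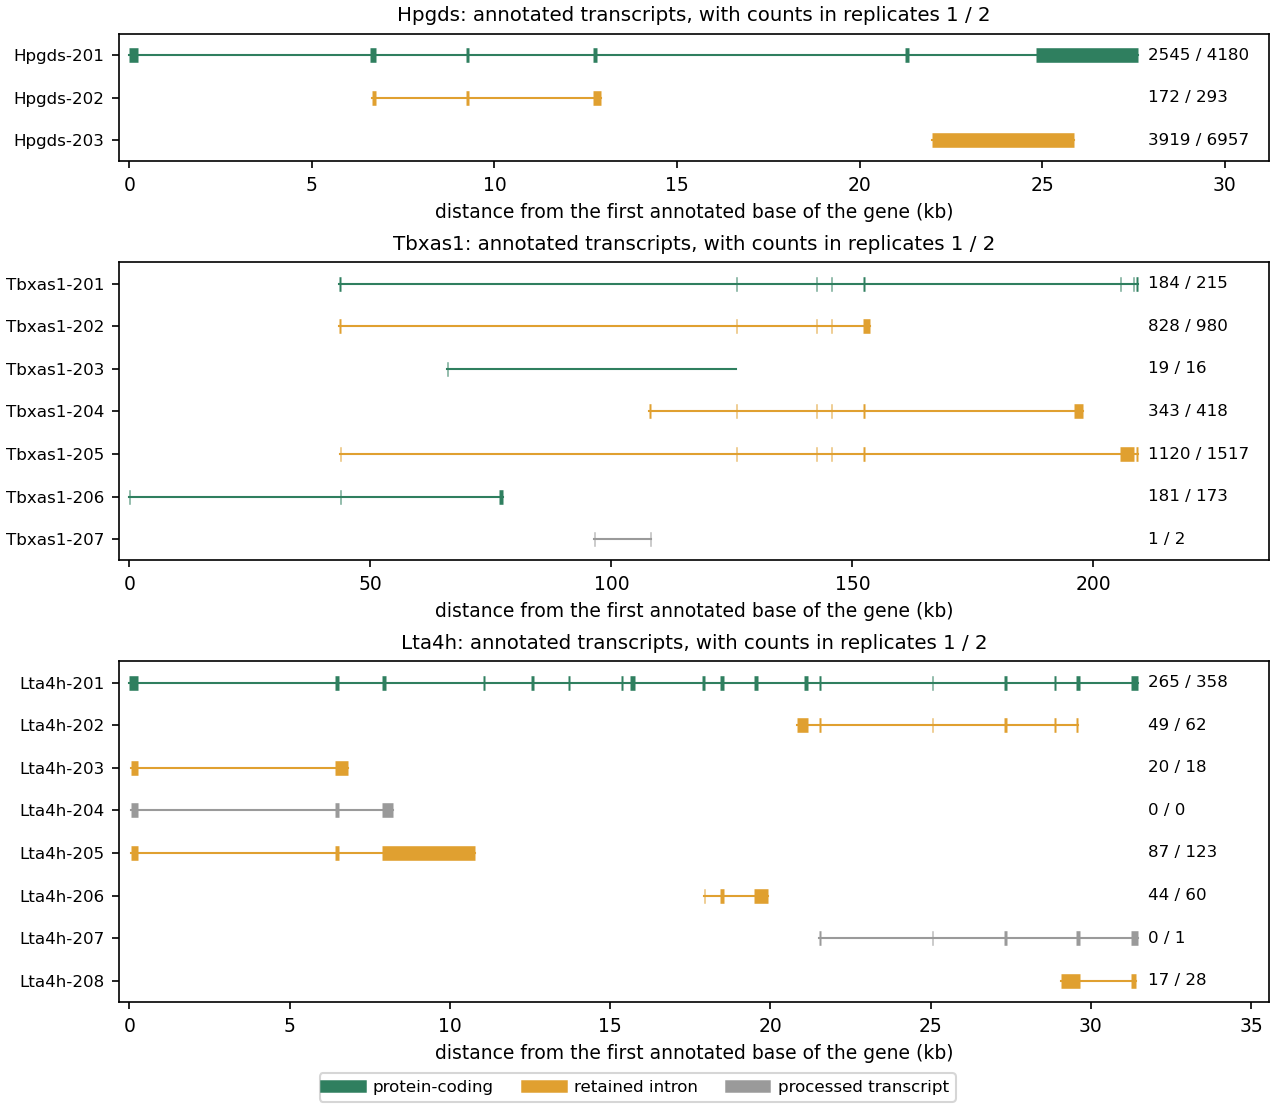
Annotated transcripts of Hpgds, Tbxas1 and Lta4h, drawn to scale as distance in kb from the first annotated base of each gene in the direction of transcription. Thick blocks are exons, thin lines introns, colours the transcript class, and the numbers at the right the counts in replicates 1 and 2. The single block of Hpgds-203 holds 3919 and 6957 counts.

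The 2 libraries were compared gene by gene as the log2 ratio of replicate 2 over replicate 1, on counts scaled by TMM (a method that centres the bulk of genes) plus 0.5. With 1 library on each side there is no replicate check, and the intervals given cover counting error only. Over the 10984 genes that averaged 50 counts or more, the squared differences between the libraries were 19.67 times what counting error gives (chi-square per degree of freedom). Among the 10 genes, 6 averaged 50 counts or more, and 0 of these were 2-fold or more apart, as were 0.373% of all genes with that many counts. The median log2 ratio of the 10 genes was -0.10, beside 0.0029 over all genes past edgeR's filter on low counts, and 4 of the ratios lay above 0.

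Hpgds was higher in replicate 2, with a log2 ratio of 0.28 (95% interval 0.24 to 0.33). Of 2010 genes averaging 1000 counts or more, 79 (3.93%) had a ratio at or above it, and the SD of the ratio over those genes was 0.185. Ptgs1 was lower in replicate 2, with a log2 ratio of -0.63 (-0.83 to -0.44), and Tbxas1 likewise at -0.19 (-0.26 to -0.12). The size of the Tbxas1 ratio was close to that SD of 0.185, so a difference of this size was common among genes with as many counts. For Ptgs1, which averaged fewer than 1000 counts, how many genes with as many counts were that far apart was not counted. Scaled by library size alone, Tbxas1 was at -0.06 and Hpgds at 0.41. The platelet marker Pf4 was also lower in replicate 2, at 3.50 against 11.98 TPM, and its part in the values of Ptgs1 and Tbxas1 was not tested. Gp1ba, the platelet marker with the most counts (54 and 79), stood at 2.14 and 2.06 TPM, and in the second transcript table Pf4 stood at 8.59 and 9.21 TPM. The non-coding neighbour of Ptgs1, Gm13431, had a ratio of -0.62, from 50 and 46 counts. For Lta4h (-0.07, -0.24 to 0.10), Pla2g4a (-0.14, -0.51 to 0.24), Alox5ap (0.45, -0.03 to 0.96), Alox5 (0.44, -0.27 to 1.18), Ptges (-0.61, -1.51 to 0.25), Ltc4s (-0.78, -2.37 to 0.67) and Ptgs2 (0.16, -1.62 to 2.13) the counting interval included 0.

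**Figure D4:**
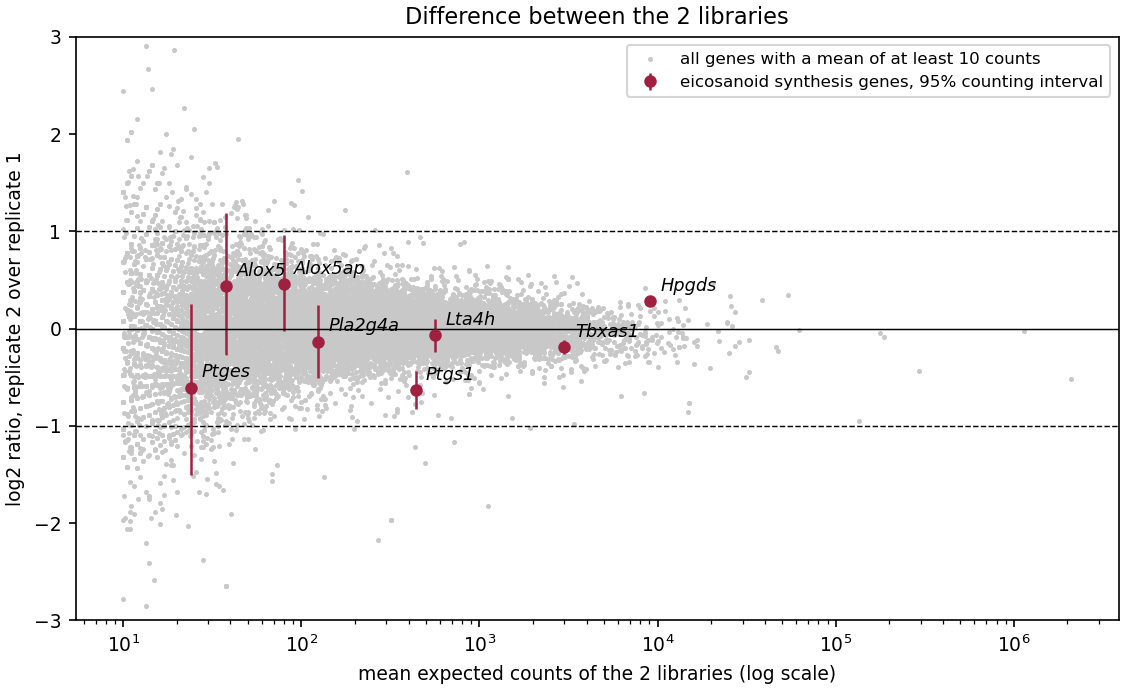
Log2 ratio of replicate 2 over replicate 1 against the mean expected counts of the 2 libraries (log scale), with all genes of at least 10 mean counts in grey and the eicosanoid synthesis genes in red with 95% counting intervals. Dashed lines mark 2-fold. Hpgds lies above 0 and Ptgs1 and Tbxas1 below it with intervals clear of 0. Ptgs2 and Ltc4s have too few counts to be drawn, and a few grey points lie outside the axis.

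The second transcript table, made from the same reads in another way, placed some of the genes elsewhere. Mean TPM was at least 2-fold higher there for 3 of the 10 genes. They were Ptges (2.62 and 2.61 TPM, 4.09-fold), Ptgs2 (3.88-fold) and Alox5ap (13.8 and 22.2 TPM, 2.78-fold). Of the protein-coding genes with a mean of 1 TPM or more in either table, 27.5% were that much higher. Ptgs2, with means of 0.115 TPM in the gene table and 0.446 TPM in the second, lies outside that set, so the 2 shares are not over like sets. For each of them a share of that level lay on short entries that were at 0 in the first transcript table. For Ptgs2 in replicate 2 it was 0.657 TPM from 2.61 counts on Ptgs2-202, an entry of 358 bases, and for Ptges it was 1.49 and 1.42 TPM on Ptges-204, a processed transcript of 543 bases. For Alox5ap it was 5.40 and 6.78 TPM on the coding Alox5ap-202 of 452 bases. By RPM in place of TPM only Ltc4s was 2-fold or more higher there (2.34-fold, from 36 and 39 counts against 10 and 8). Its mean TPM was 1.97-fold higher there, from 3.36 and 3.90 TPM. In that table Ptges thus reached 1 TPM, while Alox5 did not in replicate 1 (0.896 and 2.36 TPM). Hpgds (184.6 and 315.6 TPM), Tbxas1 (107.9 and 131.2 TPM), Lta4h (36.9 and 56.5 TPM) and Ptgs1 (25.3 and 30.6 TPM) were the 4 highest in both tables. Levels in that table were higher in replicate 2 for 8 of the 10 genes, beside 5 of 10 in the gene table. How many of all genes were higher in replicate 2 was not counted for either table. Protein-coding genes as a whole held 25.3% of the second table's TPM in replicate 1 and 37.1% in replicate 2. There miRNA entries took up 41.2% in replicate 1 and 16.8% in replicate 2.

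A list of 68 other genes of the pathway, 69 entries in all since Dpep2 has 2, was examined by role. Of these entries 38 reached 1 TPM in both libraries, beside 46.7% of all 22028 protein-coding genes. The counts by role below are to be read beside that same share. No count was held in either library by 13 entries, and the median level was 1.88 ± 0.0424 TPM. Values by role are from the gene table. Among genes that release or take back arachidonic acid, 14 of 21 reached 1 TPM. The highest were Anxa1 (annexin A1, known as an inhibitor of phospholipase A2, 72.92 and 78.07 TPM), Daglb (a diacylglycerol lipase, 42.48 and 34.90 TPM) and Pla2g15 (the lysosomal phospholipase, 21.63 and 18.81 TPM), and Pla2g4e was at 0. Of the exon bases of Daglb 24.1% are shared with the opposite-strand gene Rac1. All 3 thus stood above Pla2g4a in both libraries. Pla2g4e, at 0 in the gene table, stood at 1.28 and 1.66 TPM in the second transcript table.

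Of 7 other prostanoid synthesis genes 5 reached 1 TPM, none near Hpgds. The highest were Akr1b3 (an aldose reductase that can reduce prostaglandin H2, 7.61 and 7.57 TPM), Ptges3 (the cytosolic prostaglandin E synthase and HSP90 co-chaperone p23, 7.46 and 6.27 TPM) and Fam213b (a prostamide and prostaglandin F synthase, 5.0 and 5.04 TPM). Ptges3 and Ptges2 (2.18 and 1.57 TPM), the constitutive prostaglandin E synthases, both stood above Ptges in the gene table. In the second transcript table Ptges (2.62 and 2.61 TPM) lay above Ptges2 in replicate 1 (2.31 TPM) and below it in replicate 2 (4.34 TPM). Ptgds, the lipocalin-type prostaglandin D synthase, and Ptgis, prostacyclin synthase, had no count.

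Of 15 other lipoxygenase and leukotriene entries 5 reached 1 TPM. The highest were Dpep2 (a dipeptidase that makes leukotriene E4 from D4, 40.35 and 38.21 TPM for the larger of its 2 entries), Cotl1 (a 5-lipoxygenase binding protein, 16.23 and 15.69 TPM) and Mgst1 (a microsomal glutathione transferase, 13.80 and 8.46 TPM). Of the exon bases of the larger Dpep2 entry 37.3% are shared with the other and 11.2% with the opposite-strand gene Gm45752. Alox15, Alox12e, Alox12b, Alox8, Ggt1 and Dpep1 had no count in either library. Of 12 genes of inactivation and export 9 reached 1 TPM, led by Abcc1 (the leukotriene C4 exporter, 52.78 and 45.91 TPM), Cyp4f13 (of a cytochrome P450 family that hydroxylates fatty acids, 52.04 and 43.20 TPM) and Ptgr2 (a prostaglandin reductase, 18.24 and 13.88 TPM). Of the exon bases of Ptgr2 32.0% are shared with the opposite-strand gene Gm47484. Slco2a1, the prostaglandin transporter, had no count in the gene table and stood at 1.57 and 2.49 TPM in the second transcript table.

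Of 14 receptor genes 5 reached 1 TPM. Ptger4, the EP4 receptor, stood at 4.94 and 3.98 TPM and Cysltr2, a receptor of cysteinyl leukotrienes, at 3.15 and 2.17 TPM. Ptgdr and Tbxa2r, the receptors of prostaglandin D2 (DP1) and thromboxane, had no count, nor did Ptgfr.

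**Figure D5:**
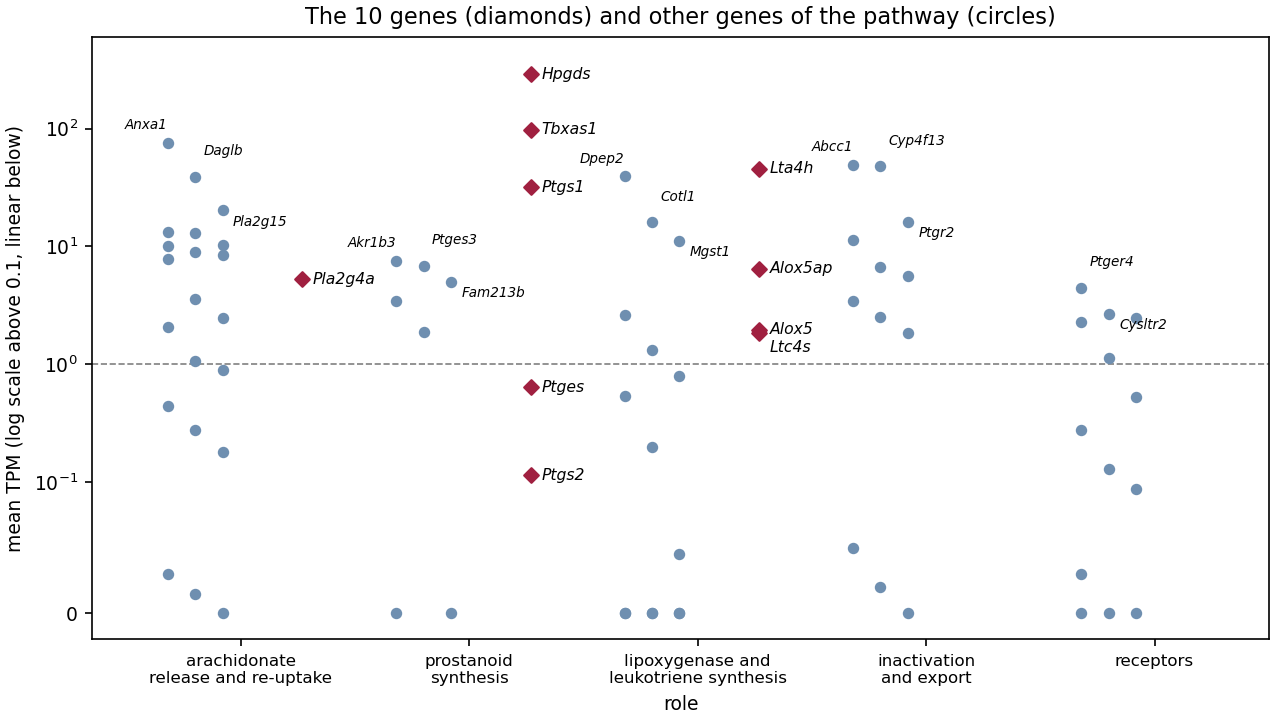
Mean TPM of the 2 libraries (log scale above 0.1, linear below) for the 10 eicosanoid synthesis genes (red diamonds) and the other genes of the pathway (blue circles) by role, with the 3 highest of each role named (2 for receptors, where 1 gene is not drawn) and the dashed line at 1 TPM. Points at 0 overlap. Hpgds and Tbxas1 lie above every other gene drawn, and Ptgs2 is the lowest of the 10.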

How the data were processed

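Expected counts and TPM were analysed as the authors deposited them. Each library has a gene table with 2 transcript tables. The notes deposited beside the files say that genes and the first set of transcripts were quantified from an alignment to GENCODE M21 transcripts (mm10), and that the other set was quantified from reads with an index. The expected counts in these deposited files share out reads that fit several places. The aligner, the counters and tool versions were not given in the sources used here.

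Entries outside the annotation (0.338% and 0.270% of counts) were left out. Levels are the mean ± SD of the 2 libraries. For ratios, expected counts were rounded to whole numbers, filtered with edgeR 4.0.16 and scaled by TMM in R 4.3.3, with DESeq2 1.42.0 size factors as an alternative, and 0.5 was added before log2. The ratio step was tested on simulated data. Ratio intervals are exact binomial and those of shares are Wilson intervals, at 95%. Both cover counting error only, because without molecular identifiers several reads can stem from 1 molecule, and the spread between the libraries may be technical. Retained-intron shares are of counts in the first transcript table. Genes, exons and transcript sequences were taken from GENCODE M21 and promoter windows from RefSeq on GRCm38.p6. Python 3.11.15 with numpy 2.4.6, pandas 2.3.3, scipy 1.17.1 and matplotlib 3.10.9 did the rest.

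All 10 genes were named. Of each role of the pathway list the 3 highest and those with no count were named, except the highest receptor gene, as were overlapping or neighbouring genes that bear on a value, and Ptges2 was added after its values were seen. The level of that receptor gene is not reported here. The genes and lists were chosen with earlier results of these data known. Alternatives were other thresholds, the other deposited units, other scalings and each library alone.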

Additional observations from a re-analysis of the deposited data

How the results depend on the processing

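The number of the 10 genes at 1 TPM or more ran from 6 (2 TPM) to 9 (0.5 TPM, or posterior mean TPM) over the settings tried, and that of the pathway entries from 31 to 45. The median level of the 10 genes was 8.12 TPM by posterior mean TPM, 13.11 in the second transcript table and 23.21 when TPM was rescaled over protein-coding genes, the cause of the last being its smaller set of genes and that of the others not tested. It was 5.19 and 6.57 TPM in single libraries. The retained-intron share was 68.3% by TPM (single genes are given in the report), and 33.8% without Hpgds and Tbxas1, an alternative chosen after seeing the data. Genes at least 2-fold higher in the second table numbered 1 by RPM, and 2 to 4 in single libraries. Scaling by library size alone moved the log2 ratio of all genes by 0.13, and the median of the 10 genes to 0.02, while the number 2-fold or more apart stayed at 0 under each of the 5 alternatives run. The sign of the ratio held in all settings for 9 genes, and Lta4h ran from -0.07 to 0.06. Leaving out a library gives no value for a ratio between the 2. No paired analysis was possible because there is 1 group. Counts of 50 or fewer limit what can be said of Alox5, Ltc4s, Ptges and Ptgs2.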

Other observations

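The lipoxygenase genes on chromosome 11 were examined together after their values were seen. Alox12b, Alox8, Alox12e and Alox15 had no count in either library, Aloxe3 held 2 counts in each, and Alox12 held 16 and 19 counts (0.590 and 0.480 TPM). In the second transcript table Alox12 stood at 1.59 and 2.63 TPM, and each of the others was below 1 TPM in both libraries. Some protein-coding genes near them were higher. Cntrob, which lies between Alox8 and Alox12, stood at 10.2 and 12.72 TPM, and beyond Alox15 Pelp1 stood at 8.30 and 7.25 TPM and Arrb2, which encodes beta-arrestin 2, at 233.46 and 216.17 TPM. Others were not: beyond Aloxe3 Hes7 held 0 and 1 counts, and Gucy2e, between Alox8 and Cntrob, held 1 count in each library. Alox5, on chromosome 6, lies 536 bases from the ubiquitin ligase gene March8, which stood at 34.48 and 32.89 TPM against 1.76 and 2.17 TPM for Alox5.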
